A study of Homo sapiens with 12 samples.

Results

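The 10 genes described here encode the enzymes that write, keep and erase DNA methylation and 3 histone-modifying enzymes that are recurrently mutated in B-cell lymphoma. They are DNMT1, UHRF1, DNMT3A, DNMT3B, TET1, TET2, TET3, EZH2, KMT2D and CREBBP. Each was found by its GENCODE symbol among the 60675 Ensembl identifiers of the count files, and each had 1 row. RNA was sequenced from SUDHL6 and SUDHL16, established human cell lines of diffuse large B-cell lymphoma (DLBCL) of the germinal-centre B-cell subtype, as parental cells and as venetoclax-resistant cells. Venetoclax (ABT-199) is an inhibitor of the anti-apoptotic protein BCL2. There were 3 libraries in each of the 4 groups, 12 in all, and they are named here by their titles. SUDHL6-parental is CE-7, CE-8 and CE-9, and SUDHL6-resistant is CE-10, CE-11 and CE-12. SUDHL16-parental is CE-25, CE-26 and CE-27, and SUDHL16-resistant is CE-28, CE-29 and CE-30. Each resistant line was selected from its parental line by months of rising venetoclax and was kept under the drug afterwards. For experiments, parental and resistant cells were each put into fresh medium. Whether venetoclax was present when RNA was taken is not stated, so exposure to the drug at that time cannot be told apart from resistance. No genetic change was engineered in any group. Each resistant population stands for a single selection, and nothing in the labels says that the libraries of a group came from separate cultures, so the p-values measure the spread between these libraries, which may be technical.

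DNA methylation in mammals sits mostly on the cytosine of CpG dinucleotides. DNMT3A and DNMT3B place it on unmethylated DNA, and DNMT1 copies it to the new strand after replication, guided by UHRF1, which binds CpGs that are methylated on a single strand. TET1, TET2 and TET3 oxidise 5-methylcytosine, the first step of its removal. EZH2 is the catalytic subunit of Polycomb repressive complex 2 (PRC2) and methylates lysine 27 of histone H3, KMT2D methylates lysine 4 of histone H3 at enhancers, and CREBBP acetylates histones. In germinal-centre B cells EZH2 is highly expressed and holds differentiation genes silent, while KMT2D and CREBBP act on many of the enhancers of the same programme. The files hold RNA counts only, and neither DNA methylation nor any histone mark was measured in them.

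In fits of each line alone DNMT3B was the only one of the 10 genes called in either line, and it was called in both, whereas its paralogue DNMT3A was called in neither. The promoter window of DNMT3A is shown as that of the de novo methyltransferase whose RNA was not called. The window is the 250 bases before the start of the MANE Select transcript in GRCh38, written 5′ to 3′ on the gene's own strand, with every CpG in capitals. It lies at chr2:25341926-25342175 on the minus strand, where longer DNMT3A transcripts have an intron.
DNMT3A: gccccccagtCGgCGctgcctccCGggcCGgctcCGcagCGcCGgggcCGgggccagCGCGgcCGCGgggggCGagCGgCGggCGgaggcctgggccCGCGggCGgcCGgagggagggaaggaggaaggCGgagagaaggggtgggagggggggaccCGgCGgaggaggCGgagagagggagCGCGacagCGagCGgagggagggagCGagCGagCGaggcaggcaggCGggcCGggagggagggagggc

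The DNMT3A window held 33 CpGs. Over the windows of 19061 genes the median was 18 CpGs, with quartiles of 7 and 27, so DNMT3A lay above the upper quartile. The number was 21 in DNMT1, 28 in UHRF1, 9 in TET1, 34 in TET2, 37 in TET3, 38 in EZH2, 23 in KMT2D and 31 in CREBBP. TET1 was the only one of these genes under the median. The GC box GGGCGG, searched on both strands, was found 2 times in the DNMT3A window and was in 59.9% of all windows, and DNMT1 and TET1 had none. These matches describe the letters in the windows and no binding was measured.

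The total count was 33992784 to 40885665 in the SUDHL6 libraries and 4131927 to 22068221 in those of SUDHL16. The lines were prepared with different kits, NEBNext Ultra II for SUDHL6 and a stranded total RNA kit of Illumina with ribosomal depletion for SUDHL16, and read on different sequencers, so a difference in level between the lines cannot be told apart from kit and platform. CE-26 stood apart. It had the smallest total, counts on 34938 genes against 20896 to 24655 in the rest of SUDHL16, and 55.4% of its counts on protein-coding genes against 84.3% to 90.2%, and SUDHL16 was therefore also fitted without it. All 5 B-cell markers (MS4A1, CD79A, CD79B, PAX5 and CD22) and all 6 germinal-centre markers (BCL6, MME, MYBL1, LMO2, SERPINA9 and S1PR2) had counts in every group. The 5 B-cell markers summed to 3816 to 4027 CPM (counts scaled to library size) in SUDHL6 and to 3573 to 3995 CPM in SUDHL16, except in CE-26, where they summed to 1584 CPM. The myeloid and stromal lists of 6 genes each summed to at most 12.6 and 25.4 CPM, both in CE-26, and to at most 1.32 and 2.41 CPM elsewhere. The 6 T and NK cell genes summed to at most 0.663 CPM in SUDHL6, to 1.62 to 11.6 CPM in parental and 12.6 to 14.5 CPM in resistant SUDHL16, where CD3E was called higher and CD3D and CD2 were at 0 reads in the resistant libraries. No B-cell marker was called (in SUDHL6 5 of 5, and in SUDHL16 0 of 5, had an unadjusted p under 0.05 in edgeR, and DESeq2 called 0), while 3 of 6 germinal-centre markers were called in SUDHL6 and 0 of 6 in SUDHL16, where 0 had an unadjusted p under 0.05 and DESeq2 called 0. A gene was called changed at a fold change of 1.5 or more together with an edgeR p, adjusted after Benjamini and Hochberg, under 0.05. By this rule 8.96% of the 16662 genes tested were called in SUDHL6, 5.30% of 15708 in SUDHL16 and 10.0% of 16280 in SUDHL16 without CE-26. An unadjusted edgeR p under 0.05 was found for 7523 of the 16662 genes in SUDHL6 and for 3002 of the 15708 in SUDHL16. Levels below are in CPM on the TMM scale (trimmed mean of M values), set within each line separately, and all 10 members passed the filter on low counts in each line.

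**Figure D1:**
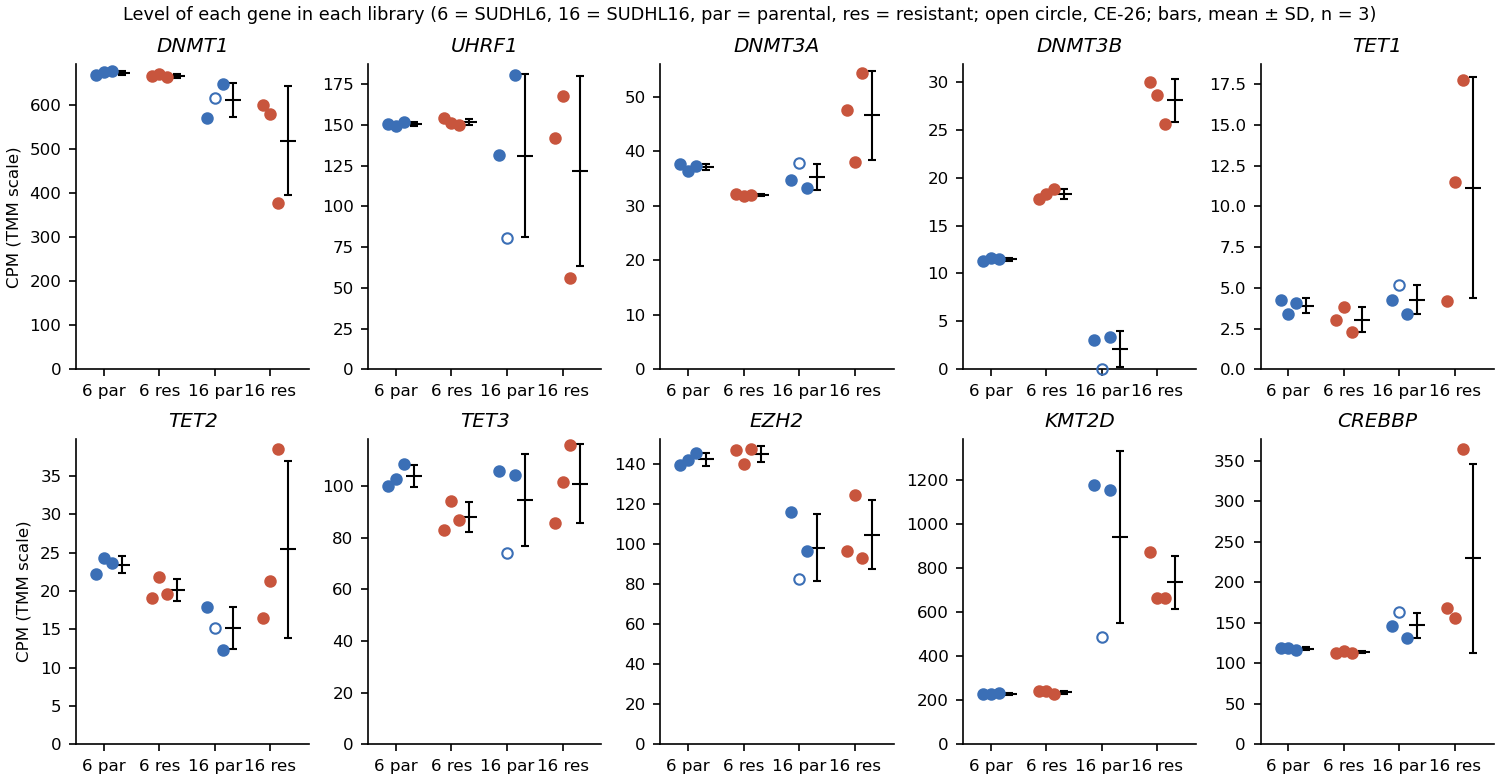
Level of each of the 10 genes, in CPM on the TMM scale (vertical axis, from 0), in the 3 libraries of each group (horizontal axis), with the mean ± SD beside the points and CE-26 drawn as an open circle. Resistant DNMT3B points lie above all parental points of their line, while most other genes overlap between the groups in SUDHL16.

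DNMT3B rose in both resistant lines. Its parental levels were not compared between the lines, since kit and platform differ and the scale was set within each line. In SUDHL6 it was at 11.3, 11.6 and 11.6 CPM in CE-7, CE-8 and CE-9 and at 17.8, 18.3 and 18.8 CPM in CE-10, CE-11 and CE-12. The means were 11.5 ± 0.155 and 18.3 ± 0.491 CPM (SD, n = 3 each), and the groups did not overlap. The log2 fold change was 0.67 (SE 0.0628, 95% interval 0.53 to 0.81, edgeR adjusted p = 3.21e-06), which is 1.59-fold, close to the 1.5-fold limit. The call was lost in 1 fit of all 12 libraries, where the spread is shared with SUDHL16 and the edgeR adjusted p was 1. In SUDHL16 it was at 3.03, 0 and 3.35 CPM in CE-25, CE-26 and CE-27 and at 29.9, 28.7 and 25.6 CPM in CE-28, CE-29 and CE-30. Every resistant library was far above every parental one, and the parental values rest on 55, 0 and 54 reads, against 447, 609 and 602 in the resistant libraries. The means were 2.13 ± 1.85 and 28.1 ± 2.23 CPM (SD, n = 3 each), with a log2 fold change of 3.52 (SE 0.667, 95% interval 1.99 to 5.04, edgeR adjusted p = 0.0212). A count of 0 in CE-26 allows up to 3 reads, which is 1.03 CPM there, and the mean of the other parental libraries, 3.19 CPM, would have given 9.27 reads in it. With CE-26 left out it was 3.15 (SE 0.292, edgeR adjusted p = 4.50e-04), from 3.39 to 30.002 CPM. With all 6 libraries minus another one, the call was lost without CE-25 (log2 fold change 3.72, edgeR adjusted p = 0.0549), CE-28 (3.51, 0.107), CE-29 (3.52, 0.115) or CE-30 (3.59, 0.0984) and held without CE-27 (3.83, 0.0448). DNMT3B is at chr20:32762385-32809359 on the plus strand, and no other annotated gene overlaps it.

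DNMT3A, which shares the de novo function, was not called in either line. In SUDHL6 it was at 37.7, 36.5 and 37.2 CPM in the parental libraries and at 32.2, 31.8 and 32.05 CPM in the resistant ones. The groups did not overlap and the log2 fold change was −0.22 (SE 0.0414, edgeR adjusted p = 0.00125), which passed the test but was well short of 1.5-fold. In SUDHL16 it was at 34.7, 37.9 and 33.3 CPM in the parental libraries and at 47.6, 38.0 and 54.3 CPM in the resistant ones. There the resistant values were the higher ones, by a margin of under 1 CPM between CE-26 and CE-29, and the log2 fold change was 0.40 (SE 0.225, 95% interval −0.11 to 0.92, edgeR adjusted p = 0.383). Without CE-26 it was 0.47 (edgeR adjusted p = 0.284). DNMT3A is at chr2:25227855-25342590 on the minus strand and overlaps the microRNA gene MIR1301.

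The ratio of the 2 de novo enzymes' mRNAs, each in CPM per kilobase of merged exon, was higher in the resistant libraries of both lines. DNMT3B was at 0.600, 0.637 and 0.622 of DNMT3A in parental SUDHL6 and at 1.11, 1.15 and 1.17 in resistant SUDHL6. In SUDHL16 the ratio was 0.175, 0 and 0.202 in the parental libraries and 1.26, 1.51 and 0.945 in the resistant ones. DNMT3B was thus the lesser of the 2 in all 6 parental libraries and the greater in all resistant libraries but CE-30. With lengths taken from the longest transcript, the mean ratio was 0.672 and 1.24 in SUDHL6 and 0.136 and 1.34 in SUDHL16, parental and resistant in each. By that length the ratio in CE-30 was 1.03. These ratios follow from the levels given above and were not tested on their own.

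**Figure D2:**
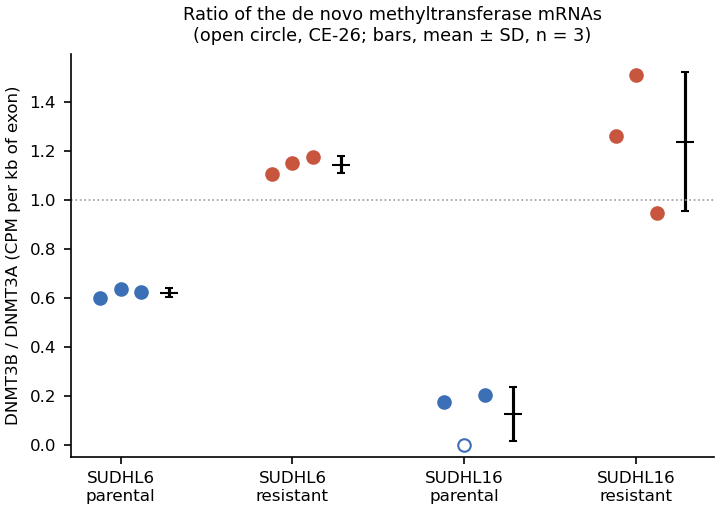
Ratio of DNMT3B to DNMT3A, each in CPM per kilobase of merged exon (vertical axis), in each library by group (horizontal axis), with the mean ± SD and CE-26 as an open circle. The dotted line marks equal levels, and every resistant library except CE-30, at 0.945, lies above it while all parental libraries lie below.

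Many genes next to DNMT3B on chromosome 20 had higher values in resistant SUDHL16 as well. Other protein-coding genes lying at least partly within 1 Mb of either end of DNMT3B were taken as neighbours, and 23 were tested in SUDHL16. Of these, 21 had a log2 fold change above 0, 8 were called higher and none lower, and the median was 1.06. Within 5 Mb the figures were 57 of 73 above 0, 13 called higher, 1 called lower and a median of 0.70. With all libraries 1 of these neighbours, DUSP15, had a larger log2 fold change than DNMT3B, at 7.92. Without CE-26, 13 of the 23 within 1 Mb were called higher and 5 stood above DNMT3B, with a median of 1.06, and within 5 Mb 26 of 73 were called higher, 1 was called lower and 6 stood above it, with a median of 0.80. In SUDHL6, 17 of 24 neighbours within 1 Mb were above 0 with a median of 0.14, 1 was called higher, none exceeded DNMT3B, and within 5 Mb the median was −0.01. COMMD7, with its start at −0.0189 Mb from that of DNMT3B (towards lower coordinates), was the called neighbour in SUDHL6, at a log2 fold change of 0.64 (edgeR adjusted p = 6.34e-06), and was also called in SUDHL16, at 1.02 (edgeR adjusted p = 0.0248). COMMD7 and DUSP15 were picked out after their values were seen. The part of this regional shift in the DNMT3B values was not tested, and no copy number was measured. For the 9 other members the median of the neighbours within 1 Mb in SUDHL16 lay between −0.38 (TET2) and 0.18 (TET3), and without CE-26 between −0.48 (TET2) and 0.21 (EZH2).

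**Figure D3:**
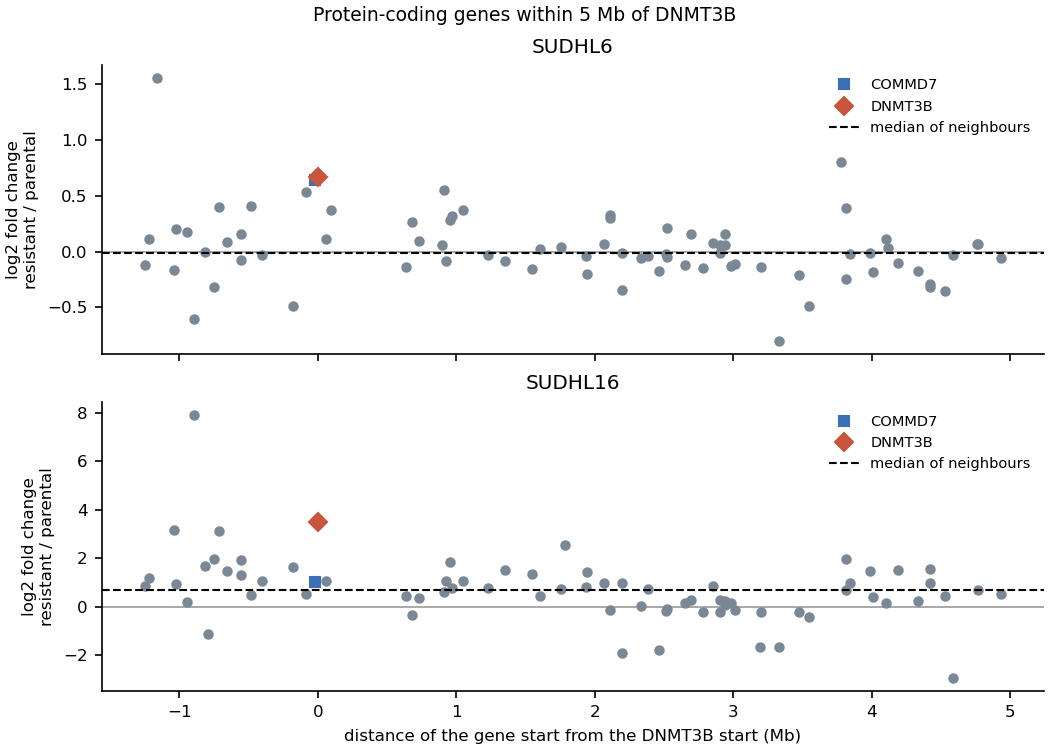
Log2 fold change of resistant over parental (vertical axis, different scale in each panel) for protein-coding genes within 5 Mb of DNMT3B, against the distance of their start from that of DNMT3B in Mb (horizontal axis), in SUDHL6 (top) and SUDHL16 (bottom), with COMMD7 as a square and the median of the neighbours dashed. In SUDHL16 most points lie above 0, around a median of 0.70, and DNMT3B is at 3.52.

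The genes whose profile over the 12 libraries was most like that of DNMT3B, after each line's parental mean was subtracted from log2 CPM, were TPX2 (Pearson r = 0.995), POMT2 (r = 0.992) and KCTD2 (r = 0.991) out of 9467 genes searched. The 12 points share lines and groups, so the r describes the profile and carries no test. TPX2, a spindle assembly factor, is on chromosome 20 too, at −1.02 Mb from DNMT3B, while POMT2 is on chromosome 14 and KCTD2 on chromosome 17. None of the 3 was called in either line. TPX2 had a log2 fold change of 0.20 in SUDHL6 (edgeR adjusted p = 6.57e-06) and 0.95 in SUDHL16 (0.153).

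The maintenance genes DNMT1 and UHRF1 were not called. DNMT1 had the highest mean level per length of the 10 genes in every group, and in SUDHL6 it was at 668, 673 and 676 CPM in the parental libraries and 665, 670 and 662 CPM in the resistant ones. The SUDHL6 groups overlapped, with a log2 fold change of −0.01 (95% interval −0.05 to 0.02, edgeR adjusted p = 0.481). In SUDHL16 DNMT1 was at 570, 615 and 647 CPM and at 600, 580 and 377 CPM, with CE-30 the lowest, and the log2 fold change of −0.24 (95% interval −0.90 to 0.43, edgeR adjusted p = 0.735) became −0.22 without CE-26 and −0.04 without CE-30. DNMT1 spans chr19:10133342-10231286 on the minus strand, and its annotated span overlaps S1PR2 on the same strand, so reads in the shared stretch could have gone to either.

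UHRF1 was at 151, 149 and 152 CPM in parental SUDHL6 and at 154, 151 and 149.999 CPM in resistant SUDHL6. The log2 fold change was 0.01 (95% interval −0.04 to 0.06, edgeR adjusted p = 0.737), so a change of more than a few percent lay outside the interval. In SUDHL16 the libraries of each group differed widely, at 132, 80.9 and 181 CPM in the parental and 142, 168 and 56.4 CPM in the resistant libraries. Its log2 fold change was −0.11 (SE 0.44, edgeR adjusted p = 0.927), −0.35 without CE-26 and 0.24 without CE-30. The low values were in CE-26 and CE-30, and these were also the SUDHL16 libraries with the lowest sum of 16 proliferation genes, at 1703 and 2476 CPM against 3747 to 4564 CPM in the others. The part of proliferation in these levels was not tested. UHRF1 is at chr19:4903080-4962154 on the plus strand and overlaps the microRNA gene MIR4747.

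The 3 TET genes, the dioxygenases of 5-methylcytosine, had slightly lower mean values in resistant SUDHL6, and none was called. TET3 was at 100, 103 and 108 CPM in the parental and 83.1, 94.4 and 86.8 CPM in the resistant libraries of SUDHL6, with no overlap and a log2 fold change of −0.24 (SE 0.0441, edgeR adjusted p = 9.63e-04). TET2 was at 22.2, 24.3 and 23.7 CPM against 19.1, 21.8 and 19.6 CPM, with no overlap and a log2 fold change of −0.22 (SE 0.066, edgeR adjusted p = 0.0214). TET1 was at 4.26, 3.42 and 4.08 CPM against 3.03, 3.81 and 2.31 CPM, where the groups overlapped and the log2 fold change was −0.36 (SE 0.176, edgeR adjusted p = 0.135). TET3 and TET2 passed the test at under 1.5-fold, and TET2 no longer passed it without CE-8, CE-9, CE-10 or CE-12 (edgeR adjusted p = 0.0586 to 0.0855). TET1 passed it without CE-11 (−0.55, edgeR adjusted p = 0.0301).

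In SUDHL16 the TET genes had wide spreads among the resistant libraries. TET1 was at 4.24, 5.17 and 3.41 CPM in the parental and 4.22, 11.5 and 17.8 CPM in the resistant libraries, and TET2 at 17.9, 15.2 and 12.4 CPM and at 16.5, 21.3 and 38.5 CPM. For both genes CE-28 lay within the parental range and CE-30 was the highest. The log2 fold changes were 1.41 (SE 0.561, edgeR adjusted p = 0.217) for TET1 and 0.75 (SE 0.368, 0.319) for TET2, and without CE-30 they were 0.90 and 0.33. In the fit without CE-26, where the TMM scale was set anew, the TET1 groups did not overlap (log2 fold change 1.55, edgeR adjusted p = 0.144). On the scale of all libraries CE-28, at 4.22 CPM, still lay just below CE-25, at 4.24 CPM. TET2 was at 0.76 (edgeR adjusted p = 0.296) without CE-26. TET3 was at 106, 74.0 and 104 CPM and at 85.5, 102 and 116 CPM, with a log2 fold change of 0.09 (edgeR adjusted p = 0.891) that was −0.05 without CE-26. TET3 made up 68.1% to 87.9% of the summed TET level per kilobase in the 12 libraries, with the lowest share in CE-30. TET1 is at chr10:68560337-68694487, TET2 at chr4:105145875-105279816, where the antisense gene TET2-AS1 overlaps it, and TET3 at chr2:73984910-74108176, all on the plus strand.

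EZH2, the H3K27 methyltransferase, was close to level in both comparisons. It was at 139, 142 and 146 CPM in the parental and 147, 140 and 147 CPM in the resistant libraries of SUDHL6, with a log2 fold change of 0.03 (95% interval −0.04 to 0.09, edgeR adjusted p = 0.522). In SUDHL16 it was at 116, 82.3 and 96.5 CPM and at 96.5, 124 and 92.9 CPM. The groups overlapped and the log2 fold change was 0.09 (95% interval −0.46 to 0.64, edgeR adjusted p = 0.891), and −0.01 without CE-26. EZH2 is at chr7:148807257-148884321 on the minus strand.

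KMT2D, the H3K4 methyltransferase of enhancers, was at 226, 226 and 232 CPM in parental and 240, 240 and 228 CPM in resistant SUDHL6. The groups overlapped and the log2 fold change was 0.05 (SE 0.0246, edgeR adjusted p = 0.140), and 0.07 without CE-12 (0.0333). In SUDHL16 it was at 1176, 489 and 1157 CPM in the parental and at 873, 667 and 667 CPM in the resistant libraries. CE-26 was the lowest of all 6 there, and the other parental libraries were the highest. The log2 fold change was −0.36 (SE 0.39, edgeR adjusted p = 0.695) with all libraries and −0.65 (SE 0.224, edgeR adjusted p = 0.115) without CE-26, from 1237 to 787 CPM with no overlap, and it was not called in either fit. KMT2D is at chr12:49018975-49060794 on the minus strand, where the antisense gene DDN-AS1 overlaps it.

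CREBBP, the acetyltransferase, was at 119, 119 and 116 CPM in parental and 113, 115 and 112 CPM in resistant SUDHL6. These groups did not overlap, and the log2 fold change was −0.05 (SE 0.025, edgeR adjusted p = 0.123). In SUDHL16 it was at 145, 163 and 131 CPM and at 169, 156 and 364 CPM, where CE-30 stood alone above the rest. The log2 fold change of 0.65 (SE 0.361, edgeR adjusted p = 0.383) was 0.74 without CE-26 (edgeR adjusted p = 0.287, with no overlap) and 0.16 without CE-30. CREBBP is at chr16:3725054-3880713 on the minus strand.

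**Figure D4:**
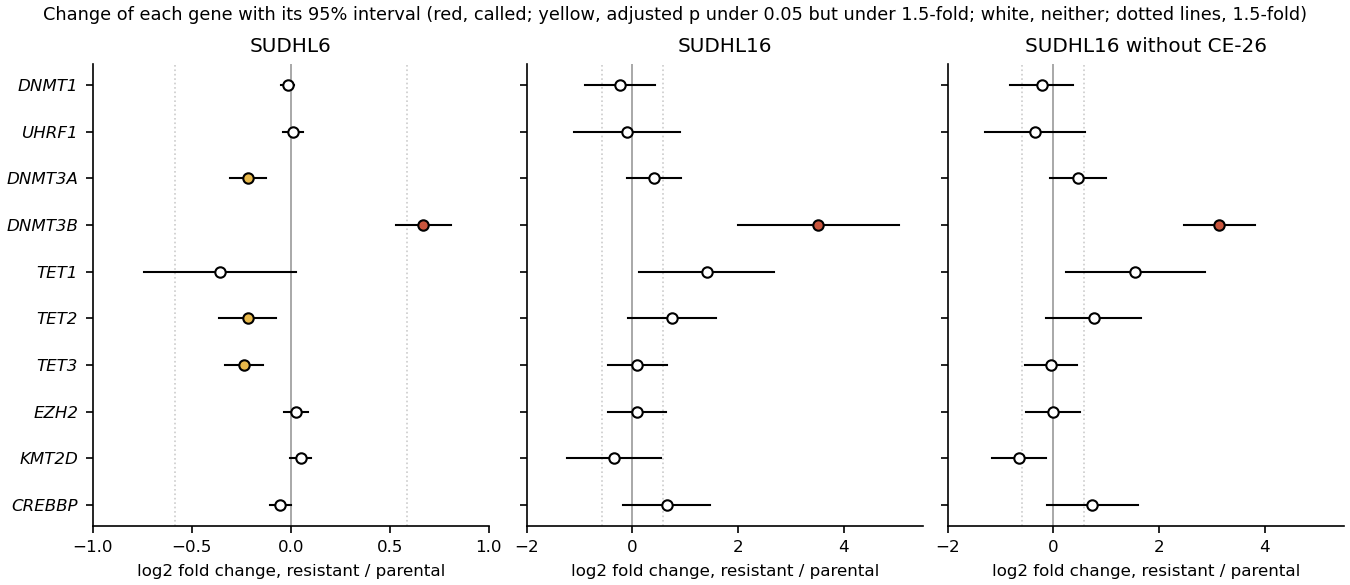
Log2 fold change of resistant over parental with its 95% interval (horizontal axis, narrower range in the first panel) for each of the 10 genes (vertical axis) in SUDHL6, in SUDHL16 and in SUDHL16 without CE-26, with called genes in red, genes past the test but under 1.5-fold in yellow and the 1.5-fold limits dotted. DNMT3B is the called gene in every panel, at 0.67, 3.52 and 3.15, and the intervals are wider in SUDHL16.

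Over the 10 genes, 1 was called in SUDHL6, where 8.96% of all genes were, and 1 in SUDHL16, where 5.30% were, DNMT3B in both cases, and in 1 fit of all 12 libraries 0 were called in SUDHL6. In SUDHL6, 4 of the 10 passed the adjusted p of 0.05 at any fold against 37.3% of all genes, and 5 did not overlap between the groups against 47.9%. In SUDHL16, 2 of the 10 did not overlap against 26.6% of all genes, and without CE-26 it was 5 against 42.2%. These shares are near those of all genes. The median log2 fold change of the 10 was −0.03 in SUDHL6, 0.25 in SUDHL16 and 0.23 in SUDHL16 without CE-26, and that of all genes tested 0.00, −0.02 and 0.05. The median SE of the 10 was 0.0346 in SUDHL6 and 0.364 in SUDHL16, so a change as small as those of DNMT3A, TET2 and TET3 in SUDHL6 was not detectable in SUDHL16.

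The change of DNMT3B was larger in SUDHL16 than in SUDHL6. In a fit of all 12 libraries the difference of the log2 fold changes, SUDHL16 minus SUDHL6, was 2.76 (SE 0.587, edgeR adjusted p = 0.0143), in a test that 7.16% of the 19621 genes passed. It was 2.43 (edgeR adjusted p = 8.04e-06) without CE-26, and it missed the limit without CE-10, CE-11 or CE-12 (2.77 to 2.80, edgeR adjusted p = 0.0551 to 0.0577). The kit and platform that go with each line cannot be told apart from the line in this difference. For DNMT3A the difference was 0.66 (SE 0.202, edgeR adjusted p = 0.0778), for TET1 1.82 (SE 0.632, 0.116) and for TET2 1.003 (SE 0.4, 0.170), and none of these passed with all libraries. DNMT3A passed without CE-29 (0.82, edgeR adjusted p = 0.0281) and with DESeq2 (0.62, adjusted p = 0.0221), and TET1 without CE-28 (2.25, edgeR adjusted p = 0.0104). KMT2D passed without CE-26, at −0.75 (SE 0.16, edgeR adjusted p = 0.00920), against −0.40 (0.662) with all libraries.

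Compared per kilobase of merged exon, the levels ran in parental SUDHL6 from DNMT1 (43.7 CPM per kilobase) through UHRF1 (29.3), EZH2 (13.2), KMT2D (8.97), TET3 (8.02), CREBBP (7.61), DNMT3A (2.70), DNMT3B (1.67) and TET2 (1.42) to TET1 (0.408), and no neighbours in this order overlapped. In resistant SUDHL6 DNMT3B (2.66) stood above DNMT3A (2.32), and CREBBP (7.34) and TET3 (6.81) changed places with overlapping values. By the length of the longest transcript CREBBP stood above TET3 in parental (10.9 and 8.61) and resistant SUDHL6 (10.5 and 7.31) alike. By that length KMT2D (10.92 to 11.23) and CREBBP (10.74 to 11.02) overlapped in parental SUDHL6. In parental SUDHL16 DNMT1 (39.7) and KMT2D (37.0) led with overlapping values and TET1 (0.445, from 0.355 to 0.537) and DNMT3B (0.309, from 0 to 0.487) were the lowest, also with overlapping values. The 0 of DNMT3B is that of CE-26, and by the length of the longest transcript TET1 was the last. In resistant SUDHL16 DNMT3B (4.08) had moved above DNMT3A (3.39) and TET2 (1.54), and its values still overlapped those of DNMT3A.

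The wider machinery was described with 10 lists of other chromatin genes, 104 genes in all. In SUDHL6, 3 of the 99 tested were called, all lower, which is 3.03% against 8.96% of all genes. In SUDHL16, 6 of the 98 tested were called, all higher, which is 6.12% against 5.30%. Without CE-26, 11 were called, which is 11.2% against 10.0%, and 10 of them were higher. Of all genes called, 718 were higher and 775 lower in SUDHL6, 503 and 330 in SUDHL16, and 1095 and 541 in SUDHL16 without CE-26. CXXC5 (log2 fold change 5.55), GADD45B (1.84), KDM6B (1.89), CBX8 (1.19), HDAC7 (1.46) and BCL7A (3.87), the genes called with all libraries, were called without CE-26 too. With any other SUDHL16 library left out, 2 to 4 list genes were called. No gene of these lists was called in both lines. The median log2 fold change over the lists was −0.03 in SUDHL6, 0.12 in SUDHL16 and 0.06 in SUDHL16 without CE-26.

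Among the genes tied to DNA methylation itself, none of the 8 tested partners of the methyltransferases (UHRF2, USP7, HELLS, CDCA7, CDCA7L, DMAP1, LIG1 and TRDMT1) was called in either line by edgeR or by DESeq2. An unadjusted p under 0.05 was found for 7 of the 8 in SUDHL6 and 1 in SUDHL16, and the median log2 fold change was −0.19 and −0.09. Over all genes tested, such a p was found for 7523 of 16662 in SUDHL6 and for 3002 of 15708 in SUDHL16. These are the counts to set beside those of the lists here and below. DNMT3L and DPPA3 did not pass the filter on low counts. Of the 7 readers of methylated CpG, 1 was called in SUDHL6, where 4 had an unadjusted p under 0.05. ZBTB38, a zinc-finger protein that binds methylated DNA, fell from 29.96, 27.0003 and 26.2 CPM to 2.06, 2.43 and 2.59 CPM (log2 fold change −3.55). In SUDHL16 ZBTB38 was at 0.661, 13.8 and 2.11 CPM in the parental and 13.9, 18.4 and 29.3 CPM in the resistant libraries, so that CE-26 lay just below the lowest resistant library. It was not called there with all libraries (log2 fold change 2.09) and was called higher without CE-26 (3.91, edgeR adjusted p = 0.00438), as was ZBTB4 (1.82, edgeR adjusted p = 0.0147, against 1.07 and 0.327 with all libraries). No other reader was called in SUDHL16 by edgeR with all libraries, where 2 of 7 had an unadjusted p under 0.05 and DESeq2 called 2, MBD2 and MBD4.

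Of the partners of demethylation, 2 of 8 tested were called higher in SUDHL16 by edgeR, and 3 had an unadjusted p under 0.05. In SUDHL6 edgeR called 0 of 9, 6 had an unadjusted p under 0.05 and DESeq2 called 0. CXXC5, a CpG-binding protein that interacts with TET2, was at 0.496, 0 and 2.67 CPM in parental and 82.9, 50.7 and 84.1 CPM in resistant SUDHL16 (log2 fold change 5.78, edgeR adjusted p = 0.00367). In SUDHL6 it was at 70.5 to 76.7 CPM in the parental and 70.3 to 72.6 CPM in the resistant libraries. The CXXC5 levels were not compared between the lines, since kit and platform differ and the scale was set within each line. GADD45B, a stress-induced protein linked to demethylation, was at 4.30, 5.51 and 6.89 CPM in parental and 13.9, 17.1 and 28.6 CPM in resistant SUDHL16 (1.83, edgeR adjusted p = 0.0353).

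Around EZH2, 1 of the 11 tested PRC2 genes was called in SUDHL6, AEBP2, an accessory subunit. AEBP2 fell from 107, 106 and 107 CPM to 64.4, 76.0 and 71.2 CPM, a log2 fold change of −0.60 (edgeR adjusted p = 5.91e-07). Of the 11, 7 had an unadjusted p under 0.05 in SUDHL6 and 3 had a log2 fold change above 0, with a median of −0.09. No PRC2 gene was called by edgeR in SUDHL16, where the median of the 11 was −0.14, 2 had an unadjusted p under 0.05 and DESeq2 called 1, PHF19. Of the H3K27 demethylases and PRC1 genes, 2 of 12 tested were called higher in SUDHL16 by edgeR, and 5 had an unadjusted p under 0.05. In SUDHL6 edgeR called 0 of 13, 9 had an unadjusted p under 0.05 and DESeq2 called 0. KDM6B, which removes the mark that EZH2 places, was at 74.5, 76.5 and 52.2 CPM in parental and 223, 177 and 299 CPM in resistant SUDHL16 (1.79, edgeR adjusted p = 0.0122). CBX8, a chromodomain subunit of PRC1, had a log2 fold change of 1.23, with no overlap between the groups. KDM2B, a demethylase and a subunit of a PRC1 variant, was called higher in SUDHL16 by DESeq2, and by edgeR without CE-26 (0.89, edgeR adjusted p = 0.0352). By edgeR with all libraries none of the 14 genes of H3K4 methyltransferases and their complexes was called in either line, and 11 had an unadjusted p under 0.05 in SUDHL6 and 2 in SUDHL16. NCOA6, a subunit of the KMT2D complex, was called higher in SUDHL16 by DESeq2, and by edgeR without CE-26 (0.88, edgeR adjusted p = 0.0404). It starts 2.06 Mb from DNMT3B on chromosome 20, among the neighbours within 5 Mb described above. Their median was 0.70 with all libraries and 0.80 without CE-26. The part of that regional shift in the NCOA6 values was not tested. Of the 5 H3K4 demethylases and 8 acetyltransferases none was called by either tool, and an unadjusted p under 0.05 in edgeR was found for 4 and 1 in SUDHL6 and for 1 and 0 in SUDHL16.

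Of the 13 deacetylases and corepressors, HDAC7, a class IIa deacetylase, rose in SUDHL16 from 88.0, 69.6 and 88.0 CPM to 264, 214 and 239 CPM (log2 fold change 1.55). HDAC9 was called lower in SUDHL6 (−1.66, edgeR adjusted p = 0.0147), at no more than 15 reads in any library. With all libraries edgeR called no other gene of this list. HDAC11 was called lower in SUDHL16 by DESeq2, and by edgeR without CE-26 (−2.51, edgeR adjusted p = 0.0321, against −2.78 and 0.0534 with all libraries), and NCOR1 was called higher by DESeq2. BCL7A, a subunit of the SWI/SNF remodelling complex and a gene altered in B-cell lymphoma, was the called gene among 12 other lymphoma chromatin genes tested in SUDHL16, at 6.67, 12.4 and 7.76 CPM in the parental and 101, 111 and 101 CPM in the resistant libraries (3.60, edgeR adjusted p = 5.55e-04). DESeq2 called MEF2B higher there too. In SUDHL6 BCL7A was at 350.4 to 363 CPM in the parental and 348 to 359 CPM in the resistant libraries. None of the 11 genes tested was called in SUDHL6 by edgeR, where 3 had an unadjusted p under 0.05, or by DESeq2. Of the 20 germline genes that promoter methylation commonly silences, 1 passed the filter on low counts in SUDHL6 and 0 in SUDHL16. Their sum was at most 1.74 CPM in the SUDHL6 libraries and 1.22 CPM in the SUDHL16 ones, except in CE-26, at 35.6 CPM. Of 16 proliferation genes, 1 was called in SUDHL6, MCM5, which fell (−0.60). All 16 had an unadjusted p under 0.05 there and did not overlap, 6 were higher, and the median log2 fold change was −0.10. They summed to 6492 to 6537 CPM in parental and 6079 to 6159 CPM in resistant SUDHL6. In SUDHL16 edgeR called 0, 2 had an unadjusted p under 0.05 and DESeq2 called 1, TYMS. Without CE-26 edgeR called TYMS higher (0.97, edgeR adjusted p = 0.0360) and TOP2A lower (−0.97, edgeR adjusted p = 0.0485).

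**Figure D5:**
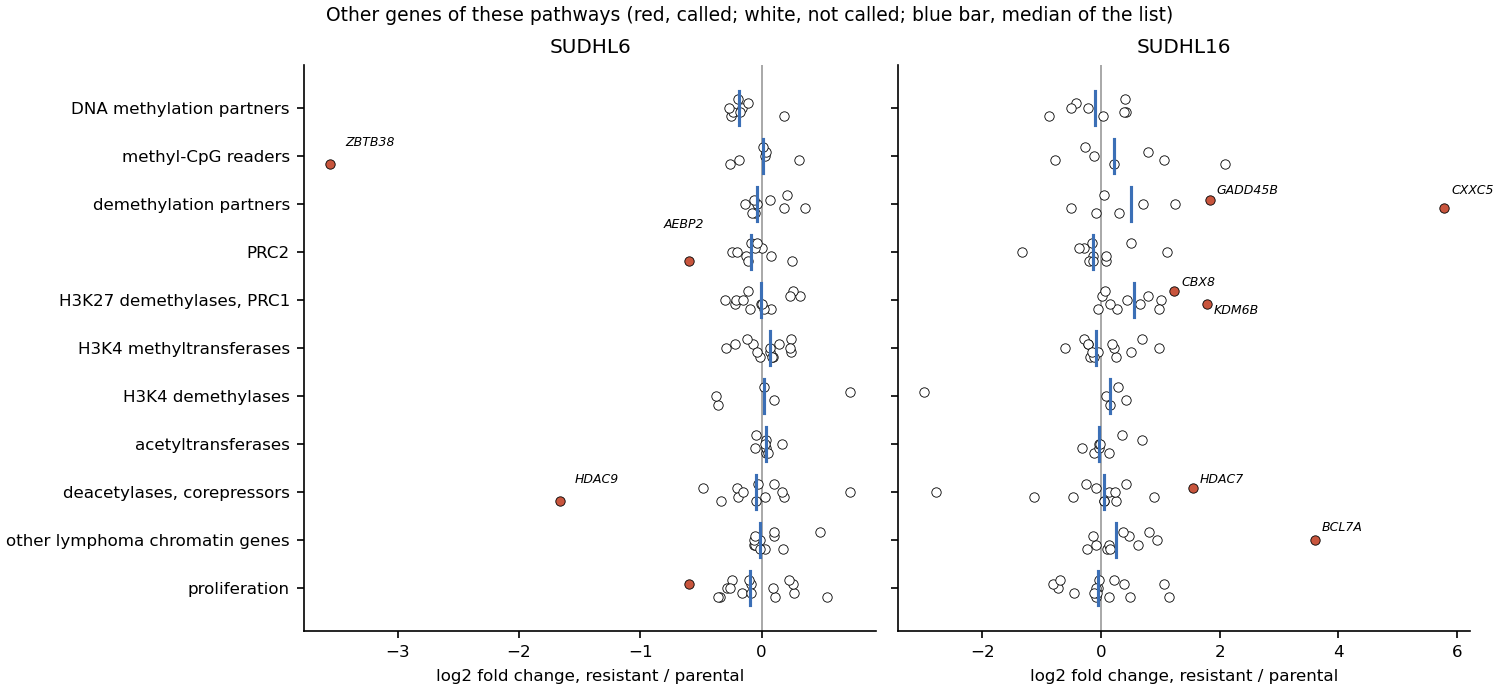
Log2 fold change of resistant over parental (horizontal axis, different scale in each panel) of each tested gene of the 10 chromatin lists and of the proliferation list (vertical axis), in SUDHL6 and SUDHL16, with called genes in red and the median of each list as a blue bar. The named called genes lie below 0 in SUDHL6 and above 0 in SUDHL16.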

How the data were processed

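Per the labels and the methods of the study, the authors trimmed reads with Trim Galore, aligned them to GRCh38 with HISAT2 and assembled transcripts with StringTie. They deposited raw counts per gene, 1 whole number for each of 60675 Ensembl identifiers and library, with no normalization. The tool, annotation and strand setting of the counting are not given in the sources used here, so overlapping genes could have shared reads. Of the identifiers, 56558 (93.21%) matched GENCODE release 44, which gave symbols, positions and exon lengths. Groups came from the labels.

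Each line was fitted alone with edgeR 4.0.16 in R 4.3.3 (filterByExpr, TMM, two-sided quasi-likelihood test, Benjamini-Hochberg adjustment over all genes tested). Calls were made at an adjusted p below 0.05 with a fold change of 1.5 or more. Lines were compared by the interaction term of 1 fit to the 12 libraries. Log2 CPM had a prior count of 2. Counts of 0 were bounded at 3 reads, for counting error only. Alternatives were DESeq2 1.42.0, upper-quartile scaling, library totals, no filter on low counts, 1 fit of the 12 libraries, each library left out, and lengths of the longest transcript. The scripts were tested on simulated data.

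Named are all 10 members, up to 3 called genes of smallest adjusted p from each list and line, list genes called alike in both lines and the 3 genes most like a called member. Others are marked where they were picked after their values were seen. The members and the lists, which were written from general knowledge, were chosen with earlier results of these data known. Promoter windows were read from GRCh38 by the GENCODE start of the MANE Select transcript. Some genes first placed in the lists, and some promoter windows, are not reported here, and the counts leave them out.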

Additional observations from a re-analysis of the deposited data

Results flagged for a closer look

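Among the members and the called genes of the lists, 7 changed differently in the 2 lines by the interaction test of all 12 libraries (edgeR, adjusted over 19621 genes). For DNMT3B the log2 fold change of resistant over parental was 2.76 higher in SUDHL16 than in SUDHL6 (adjusted p = 0.0143), and it was above 0 in both. For ZBTB38 the difference was 5.96 (adjusted p = 0.00401), from −3.55 in SUDHL6 to 2.09 in SUDHL16. CXXC5 differed by 5.79 (adjusted p = 2.82e-04) and BCL7A by 3.67 (adjusted p = 4.28e-06), with log2 fold changes of −0.04 and −0.01 in SUDHL6. HDAC7 differed by 2.05 (adjusted p = 2.15e-04), from −0.48 to 1.55, KDM6B by 1.99 (adjusted p = 0.00128), from −0.16 to 1.79, and GADD45B by 1.66 (adjusted p = 0.0236), from 0.21 to 1.83. Kit, platform and depth differ between the lines and cannot be told apart from the line in these differences.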

How the results depend on the processing

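DNMT3B kept its direction in every alternative. In SUDHL6 its log2 fold change was 0.65 to 0.69 with a library left out and stayed called, and in 1 fit of all 12 libraries it was 0.67 with an edgeR adjusted p of 1, so that 0 members and 1 list gene were called there. The shared estimate of spread in that fit includes the SUDHL16 libraries. Over all alternatives the adjusted p of DNMT3B ran from 1.43e-16 to 1 in SUDHL6, from 9.63e-06 to 0.115 in SUDHL16 and from 4.56e-10 to 0.0577 for the difference between the lines. With a library left out, its log2 fold change was 3.15 to 3.83 in SUDHL16 and its difference 2.43 to 3.04, members called in SUDHL16 numbered 0 to 1, list genes called in SUDHL16 2 to 11, and members whose change differed between the lines 0 to 2. List genes called in SUDHL16 numbered 14 with DESeq2 and 19 in 1 fit of all 12 libraries, and DESeq2 found 2 members that differed between the lines, DNMT3A and DNMT3B. The cause of these moves was not tested. All genes called numbered 833 in SUDHL16 and 279 to 1636 with a library left out, 2076 with DESeq2 and 2855 in 1 fit of all 12 libraries, and in SUDHL6 1493 and 140 in that fit. Upper-quartile scaling moved the median of all genes in SUDHL16 to −0.11 and library totals to 0.11, and upper-quartile scaling turned the sign of DNMT1 in SUDHL6 (0.0018), of EZH2 in SUDHL16 (−0.0041) and of the EZH2 difference (−0.054), none of which passed in either setting. With a library left out the log2 fold change ran from −0.060 to 0.24 for EZH2, −0.046 to 0.21 for TET3 and −0.41 to 0.24 for UHRF1 in SUDHL16, and the difference from −0.25 to 0.019 for DNMT1, −0.080 to 0.30 for EZH2 and −0.41 to 0.24 for UHRF1. No paired analysis was possible because the labels give no replicate numbers, and libraries were numbered within a group in accession order only. CE-26 held 4131927 reads, and DNMT3B was at 0 in it.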
